A study of Mus musculus with 10 samples.

Results

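The circadian clock genes described here are Per1, Per2, Per3, Cry1, Cry2, Nr1d1, Nr1d2, Dbp, Tef and Npas2, which are 10 of the 18193 genes measured in the distal colon of mice with and without colitis. Their values are those of every probe set annotated to 1 of these genes and to no other gene, 22 of 34945 such probe sets. All animals were Rag1-/- mice on the C57BL/6 strain, which make no T or B cells of their own, so that any T cell in the colon descends from the injected cells. The 4 control mice were given regulatory T cells (Tregs) and their colons are labelled non-inflamed. The 6 inflamed mice were given naïve T cells, which bring on colitis in this T-cell transfer model, and the labels grade 3 of these colons as moderately and 3 as severely inflamed. Injection was at 10 weeks of age and the colon was taken 2 to 3 months later, at 4 to 5 months of age in all groups. RNA came from whole distal colon tissue, 1 array per mouse, so the replicates are separate animals.

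The circadian clock is a feedback loop of transcription that runs in most cells of the body, the cells of the gut wall included. The proteins of Arntl (also called BMAL1) and of Clock or its relative Npas2 pair up, bind the E-box in DNA and switch on the Period (Per) and Cryptochrome (Cry) genes, whose proteins then return to block them. The nuclear receptors of Nr1d1 and Nr1d2 (REV-ERB alpha and beta) repress Arntl and Npas2, and the related factors of Dbp, Tef and Hlf carry the rhythm to further genes through the D-box, where the protein of Nfil3 competes with them as a repressor. Many of these transcripts therefore rise and fall in the course of a day. The hour of day at which each colon was taken is not given in the sources used here, and its part in the differences below was not tested.

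Letters of the DNA elements named above occur just upstream of several of these genes. RefSeq start sites were at hand for 9 of the 10 genes, all but Per2, in 11 windows on GRCm38.p6, and the 250 bases before each start were searched on both strands for the E-box CACGTG, its variant CACGTT (the E′-box), the D-box TTATGTAA or TTACGTAA, the REV-ERB and ROR element TAGGTCA and the CRE TGACGTCA. At least 1 of them was found for 6 of the genes, and no match overlapped another. The stretches below are shown because they carry those letters in genes whose values are compared further on, each 5′ to 3′ on the strand of the gene with the matched letters in capitals.

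Per3 (chr4:151044799-151044887, minus strand, 2 D-boxes): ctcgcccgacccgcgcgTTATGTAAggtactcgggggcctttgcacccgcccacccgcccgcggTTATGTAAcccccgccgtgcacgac
Cry1 (chr10:85185092-85185150, minus strand, an E′-box read in reverse and an E-box): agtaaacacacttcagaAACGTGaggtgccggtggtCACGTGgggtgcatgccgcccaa
Per1 (chr11:69098766-69098805, plus strand, E-box): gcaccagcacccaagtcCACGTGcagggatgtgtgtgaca
Tef, upstream start (chr15:81802529-81802568, plus strand, E-box): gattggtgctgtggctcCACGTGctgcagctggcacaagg
Tef, downstream start (chr15:81811259-81811298, plus strand, E-box): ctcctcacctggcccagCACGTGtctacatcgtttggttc
Nr1d1 (chr11:98775383-98775422, minus strand, an E′-box read in reverse): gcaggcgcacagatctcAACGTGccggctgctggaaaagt
Cry2 (chr2:92434213-92434252, minus strand, an E′-box read in reverse): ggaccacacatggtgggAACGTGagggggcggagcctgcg

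The E-box letters occurred in 6.02% of all 32851 RefSeq windows of this length, and in 4 of the 11 windows of the clock genes. These 4 windows belong to 3 of the 9 genes, as Tef has 2 of them. The D-box TTATGTAA was rarer, at 0.819% of all windows, and among the clock genes only Per3 carried it, at 205 and 158 bases before its start. The E′-box occurred in 3.85% of all windows, TAGGTCA in 2.23%, the CRE in 1.55% and TTACGTAA in 0.113%. Of the 11 clock gene windows 3 held the E′-box and 0 held any of the other 3. For Dbp, Nr1d2 and Npas2 none of these letters was found in the window searched. A match of letters is a description of the sequence and no evidence that a factor binds there.

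Most of the clock genes were lower in inflamed than in control colon, and the fall was deepest for Dbp. At an adjusted p under 0.05 (limma, two-sided, Benjamini-Hochberg over all genes) 6 were lower, where 21.2% of all genes were called lower, and 1, Cry1, was higher, where 18.5% of all genes were. Per1, Per2 and Npas2 did not pass the test. The median log2 difference over the 10 genes was -0.79, against 0.031 over all genes tested. For 5 of them (Per3, Cry2, Nr1d1, Nr1d2 and Dbp) every inflamed colon lay below every control, which held for 17.1% of all genes, and for 0 of them did every inflamed colon lie above every control, against 14.6% of all genes.

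**Figure D1:**
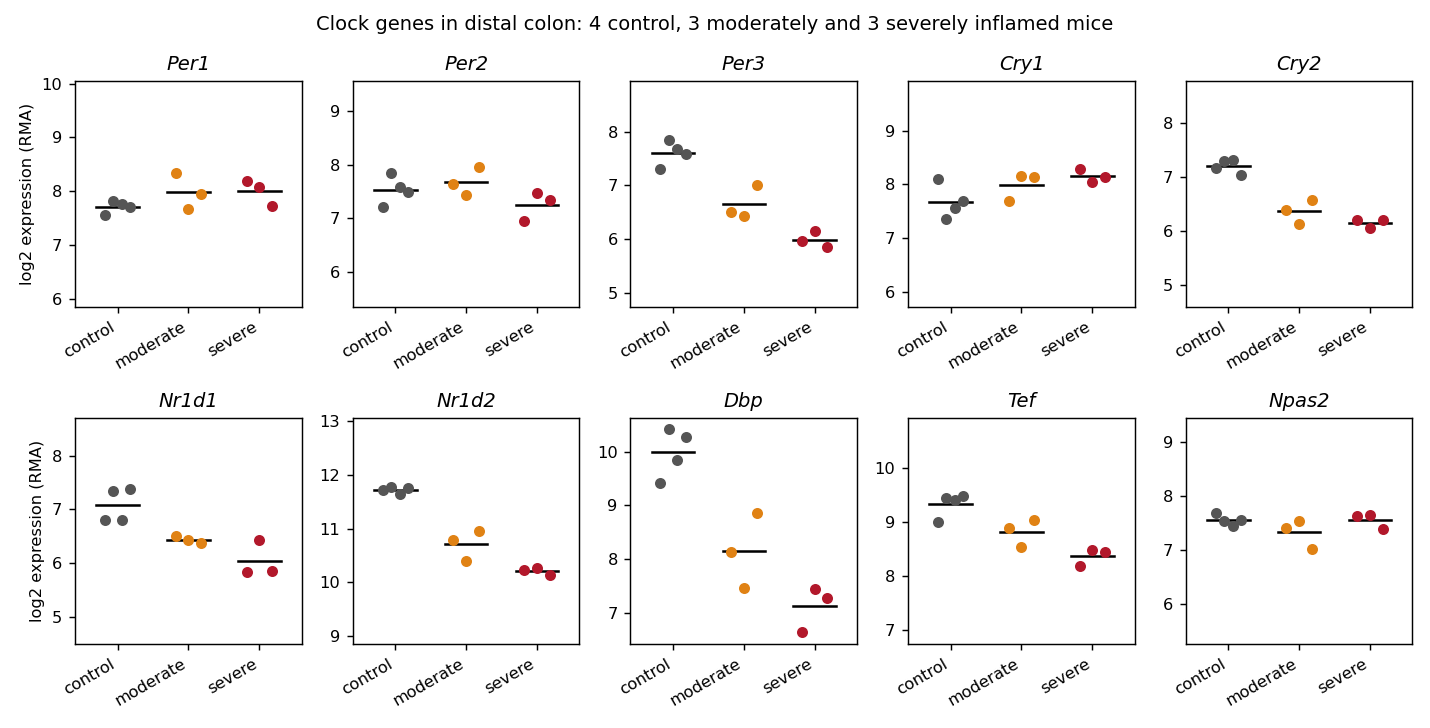
Log2 expression (RMA, vertical axis) of the 10 clock genes in each colon, with points for single mice in control, moderate and severe groups and a black line at each group mean. All panels span the same range of log2 units around different centres: Dbp fell from a control range of 9.41 to 10.41 to a severe range of 6.65 to 7.45, while the points of Per1, Per2 and Npas2 overlapped between groups.

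Marker RNA of several cell types differed between these groups, and in bulk tissue fewer cells of a type cannot be told apart from less RNA per cell. Of 12 smooth muscle markers 12 were lower in inflamed colon, and their values summed on the linear scale lay between 34001 and 44555 in control and between 10242 and 18246 in inflamed colons; Myh11, the smooth muscle myosin, fell by 2.27. Of 11 colonocyte markers 7 were lower and 1 higher, with summed values of 72782 to 85272 in control and 19722 to 49262 in inflamed colons. General epithelial markers fell in 0 and rose in 3 of 11 cases, while 5 of 9 fibroblast, 5 of 8 endothelial and 5 of 8 enteric neuron and glia markers were lower. Immune markers were higher for 9 of 10 T cell, 9 of 11 macrophage and 8 of 9 neutrophil genes, from summed control values of 660 to 693, 2781 to 3272 and 213 to 365 to inflamed values of 1165 to 2292, 8428 to 20170 and 1841 to 25245. Cd3g of T cells and Itgam of macrophages lay under the lower quartile of all probe set values in all 4 controls. The part of these shifts in the clock gene values was not tested.

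Among the output factors of the clock, Dbp showed the largest difference of the 10 genes. Dbp encodes a D-box activator whose own transcript is among those with the widest daily swing. On the log2 scale, the brighter probe set of Dbp read 9.41, 10.41, 9.85 and 10.27 in control replicates 1 to 4, 8.13, 7.46 and 8.85 in moderate replicates 1 to 3 and 6.65, 7.45 and 7.28 in severe replicates 1 to 3. No inflamed colon reached the lowest control, and the highest severe colon sat just under the lowest moderate colon. The mean difference between inflamed and control colon was -2.35 (SE 0.36), a 5.09-fold fall with a 95% confidence interval of 2.95- to 8.78-fold (adjusted p = 0.000313). The other probe set of Dbp gave a difference of -2.48 (SE 0.34, adjusted p = 0.000117 over all probe sets), with 7.90 to 8.77 in control and 5.14 to 7.18 in inflamed colons. The order of the inflamed colons by Dbp was in part that of the colonocyte sum. Among the inflamed colons severe replicate 1 was lowest and moderate replicate 3 highest for both, with sums of 19720 and 49260, but moderate replicate 1, second highest for Dbp, had a sum of 32520. Among the controls, replicate 1 had the lowest Dbp and the highest sum, 85270, and replicate 2 the highest Dbp and the lowest sum, 72780. The smooth muscle sum of the inflamed colons was highest in moderate replicates 1 and 3, at 18250 and 16980. It was lowest in severe replicate 2, at 10240. Among the controls it was highest in replicate 1, at 44550, and lowest in replicate 2, at 34000. The neutrophil sum of the inflamed colons ran in large part opposite to Dbp. It was highest in severe replicates 1 and 3, at 25250 and 15010, and lowest in moderate replicates 3 and 1, at 3250 and 1841. The macrophage sum was highest in severe replicate 1, at 20170, but next in moderate replicate 1, at 17790. Among the controls the neutrophil sum was highest in replicate 1, at 365.1, and lowest in replicate 3, at 213.3. The part of these marker shifts in the Dbp values was not tested.

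Tef, which encodes a close relative of the Dbp protein, fell less. Its brightest probe set read 9.0, 9.46, 9.41 and 9.49 in control, 8.89, 8.54 and 9.04 in moderate and 8.19, 8.48 and 8.44 in severe colons. Moderate replicate 3 overlapped control replicate 1, and the other 5 inflamed colons lay below all controls. The difference was -0.74 (SE 0.16, 1.67-fold, adjusted p = 0.0031). Its other probe sets did not move alike: the dimmest, at 4.60 on average, differed by -0.89 (adjusted p = 0.00177), and the remaining one, at 5.47 on average, by 0.10 (adjusted p = 0.423).

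The REV-ERB receptors both fell. Nr1d2 read 11.72, 11.78, 11.64 and 11.75 in the controls, 10.79, 10.39 and 10.96 in the moderately inflamed and 10.22, 10.27 and 10.14 in the severely inflamed colons. The controls spanned 0.15 log2 units (SD 0.063), and each severe colon lay below each moderate one. Its difference between inflamed and control was -1.26 (SE 0.15), 2.39-fold lower with an interval of 1.90- to 3.01-fold (adjusted p = 6.07e-05), and its dim probe set, at 4.57 on average, differed by -0.79 (adjusted p = 0.00111). Nr1d1, measured by a single probe set, read 6.81, 7.34, 6.81 and 7.37 in control, 6.51, 6.42 and 6.38 in moderate and 5.84, 6.44 and 5.86 in severe colons. All 6 inflamed values lay under the lowest control, by 0.29 at the nearest. Nr1d1 differed by -0.84 (SE 0.18, 1.79-fold, adjusted p = 0.00243).

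Of the 3 Period genes, whose proteins carry the negative arm of the loop, Per3 alone passed the test. The brightest of its probe sets read 7.31, 7.84, 7.67 and 7.58 in control, 6.51, 6.43 and 7.0 in moderate and 5.96, 6.16 and 5.85 in severe colons. The 3 groups did not overlap. Its difference was -1.28 (SE 0.20), a 2.43-fold fall with an interval of 1.80- to 3.30-fold (adjusted p = 0.000356). Per3 is measured by 6 probe sets, of which 4 were lower, with differences of -1.28, -1.13, -1.01 and -0.37, while the 2 dimmest differed by -0.11 and 0.073 and did not pass. Taken as the mean over its probe sets, the difference of Per3 was -0.64 (adjusted p = 0.00198).

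Per1, the Period gene that glucocorticoids and cyclic AMP signals also switch on, read 7.55, 7.81, 7.76 and 7.71 in control, 8.34, 7.67 and 7.95 in moderate and 8.19, 8.08 and 7.72 in severe colons. The groups overlapped, with 4 of the 6 inflamed colons above all controls. Its difference was 0.28 (95% confidence interval 0.0031 to 0.56, unadjusted p = 0.0479, adjusted p = 0.102), and it passed without moderate replicate 2 (adjusted p = 0.0385). Per2 read 7.22, 7.84, 7.58 and 7.50 in control, 7.65, 7.45 and 7.96 in moderate and 6.95, 7.47 and 7.34 in severe colons. Those ranges overlap throughout, and the difference was -0.066 (interval -0.45 to 0.31, adjusted p = 0.795). The other 2 probe sets of Per2 differed by -0.21 (adjusted p = 0.179) and 0.12 (adjusted p = 0.397).

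**Figure D2:**
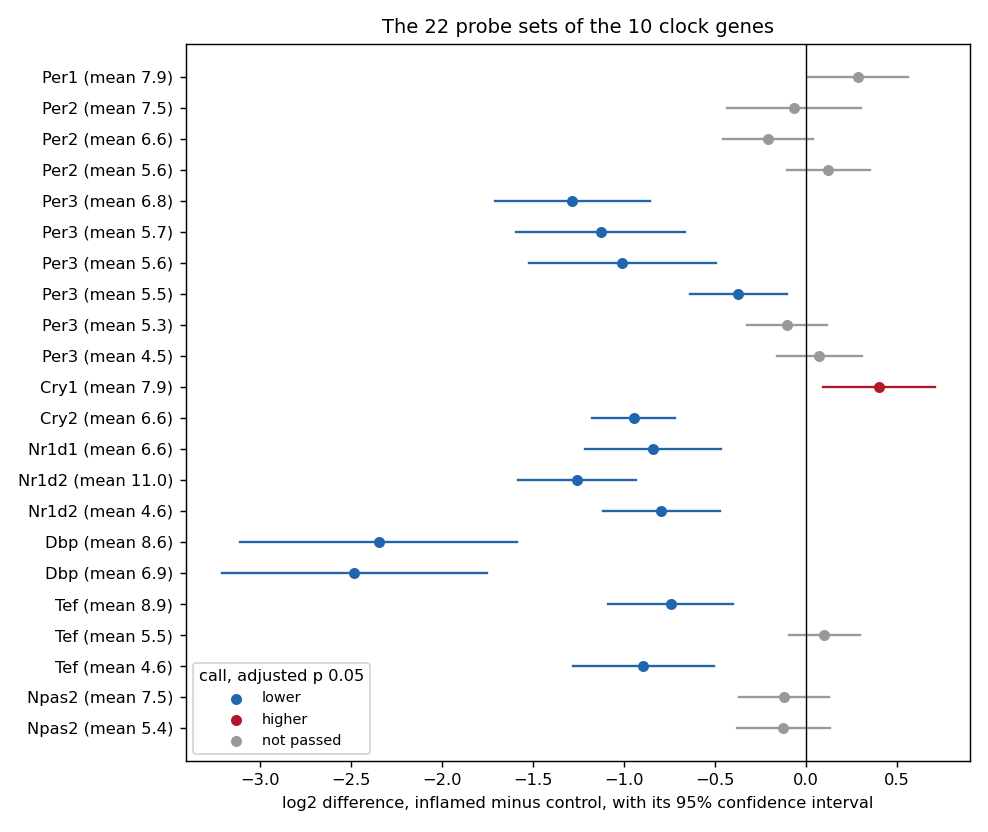
Log2 difference between inflamed and control colon (horizontal axis, 6 against 4 mice) for each of the 22 probe sets of the clock genes, with 95% confidence intervals, coloured by the call at an adjusted p of 0.05 over all probe sets. The mean log2 value over all 10 arrays stands beside each gene name; 12 probe sets were lower, 1 (Cry1) was higher and 9 did not pass, and Per3 and Tef each have probe sets in more than 1 of these classes.

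Over all 22 probe sets, 12 were called lower, against 19.4% of all probe sets, 1 higher, against 16.5%, and 9 did not pass. All 22 had a mean above the lower quartile of all probe set values, so none was left out for low signal. Per3 and Tef were the 2 genes whose probe sets divided between lower and not passed.

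The Cryptochrome genes, whose proteins are the main repressors of the Arntl and Clock pair, gave calls of opposite direction, that of Cry1 close to the threshold. Cry2 read 7.17, 7.30, 7.32 and 7.04 in control, 6.39, 6.14 and 6.58 in moderate and 6.20, 6.05 and 6.20 in severe colons. The highest inflamed colon lay 0.46 below the lowest control. Cry2 differed by -0.95 (SE 0.11), 1.93-fold lower with an interval of 1.64- to 2.26-fold (adjusted p = 3.65e-05). Cry1 read 8.09, 7.36, 7.55 and 7.70 in control, 7.70, 8.15 and 8.13 in moderate and 8.28, 8.05 and 8.14 in severe colons. Control replicate 1 lay among the inflamed colons, and moderate replicate 1 among the controls. Its difference was 0.40 (SE 0.14, 1.32-fold, adjusted p = 0.0432), a call that was lost in 10 of 22 alternative settings, among them the methods' t-test after Benjamini-Hochberg adjustment (0.0849) and leaving out any 1 of control replicates 2, 3 and 4 (0.0779 to 0.14).

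Npas2, the relative of Clock and the only E-box activator of the loop among these genes, read 7.69, 7.55, 7.45 and 7.55 in control, 7.41, 7.54 and 7.02 in moderate and 7.63, 7.64 and 7.39 in severe colons. Moderate replicate 3 stood lowest and the other colons overlapped. Npas2 differed by -0.12 (interval -0.37 to 0.13, adjusted p = 0.433), and its dimmer probe set by -0.12 as well (adjusted p = 0.444).

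Related genes can also be set against each other within each array, which is given here as a description with no test because the 5 pairs were chosen after their values were seen. On the log2 scale the inflamed minus control difference of Per3 less that of Per1 was -1.57, and Per3 less Per2 gave -1.22. Cry2 less Cry1 gave -1.35, Dbp less Tef -1.60 and Nr1d2 less Nr1d1 -0.42. In the first 4 of these pairs the control and inflamed arrays did not overlap, and in the last they did. Each of those 4 sets a gene that fell against 1 that fell less or was not lower. The share of other gene pairs without overlap was not computed, so the count is no result about these pairs.

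Both grades of inflammation showed the fall. In severely inflamed colon 6 clock genes were lower than in control, where 18.9% of all genes were, and Cry1 was higher at 0.48 (adjusted p = 0.0489), where 16.1% of all genes were. That call of Cry1 was lost in 11 of 22 alternatives, the methods' t-test without adjustment among them (0.0551). In moderately inflamed colon the same 6 were lower, where 16.7% of all genes were, and 0 were higher, where 13.2% of all genes were; at an unadjusted p under 0.05 the count of higher genes was still 0, by limma as by the methods' t-test, and Cry1 stood at 0.32 (limma, unadjusted p = 0.0882). The 6 lower genes were Per3, Cry2, Nr1d1, Nr1d2, Dbp and Tef in each case. The median difference over the 10 genes was -1.0 in severe and -0.58 in moderate colon, against 0.025 and 0.029 over all genes.

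For Dbp the difference from control was -2.86 (SE 0.33, adjusted p = 9.55e-05) in severe and -1.84 (adjusted p = 0.00203) in moderate colon, which is 7.25-fold and 3.57-fold. Per3 stood at -1.61 and -0.95, Nr1d2 at -1.51 and -1.01, and Cry2 at -1.06 and -0.84. Nr1d1 differed by -1.04 and -0.65, and Tef by -0.97 and -0.52. All 6 were thus further from control in the severe than in the moderate group. How often that held among all lower genes was not counted. Over all genes the share called lower was also larger in severe than in moderate colon, 18.9% against 16.7%. The calls of Tef (adjusted p = 0.0243) and Nr1d1 (adjusted p = 0.0224) in moderate colon were lost under some of the 22 alternatives, Tef in 7 and Nr1d1 in 5.

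**Figure D3:**
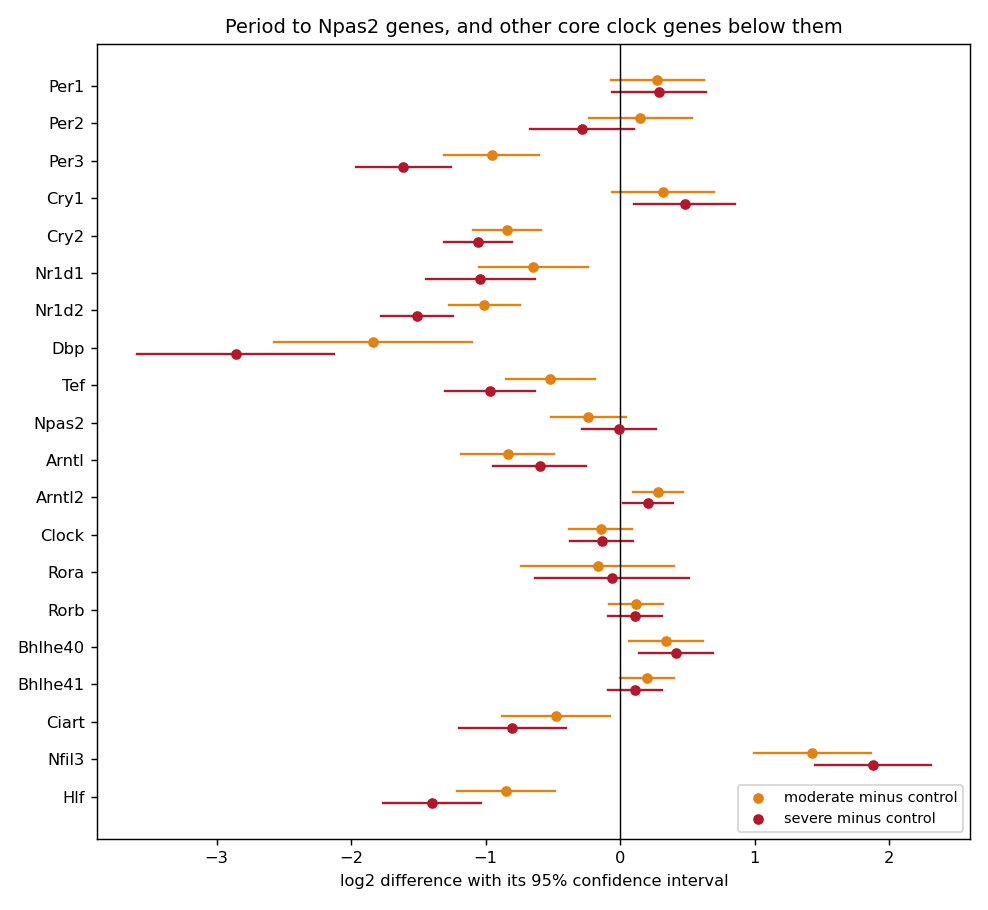
Log2 difference from control (horizontal axis) with its 95% confidence interval for the 10 clock genes (Per1 to Npas2) and 10 other genes of the core clock (Arntl to Hlf), in moderate (3 mice) and severe (3 mice) colon against the same 4 controls. Dbp stands at -2.86 in severe and -1.84 in moderate colon, and Nfil3 at 1.88 and 1.43.

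The direct comparison of severe with moderate colon called 0 clock genes lower and 0 higher, as it called 0% of all genes lower and 0% higher (limma). At an unadjusted p under 0.05 there were 5 of the 10 clock genes and 922 of all genes. For 4 genes, Per3, Nr1d2, Dbp and Tef, every severe colon lay below every moderate one, which held for 4.18% of all genes. The severe minus moderate differences were -0.66 (95% confidence interval -1.03 to -0.28) for Per3, -0.50 (-0.78 to -0.21) for Nr1d2, -1.02 (-1.81 to -0.24) for Dbp and -0.45 (-0.81 to -0.095) for Tef. Their adjusted p-values lay between 0.799 and 0.919. Per2 differed by -0.43 (-0.84 to -0.023), with severe replicate 2 inside the moderate range. The methods' t-test without adjustment passed 2 clock genes, Per3 and Nr1d2, beside 338 of all genes lower and 305 higher.

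Of 10 further genes of the core clock with values here, 3 were lower, 3 higher and 4 did not pass, with a median difference of 0.0018. Over all genes 21.2% were called lower and 18.5% higher. Arntl, whose protein pairs with that of Clock or Npas2, read 8.64, 8.69, 8.51 and 8.52 in control, 7.71, 8.19 and 7.37 in moderate and 8.02, 7.94 and 8.02 in severe colons. All inflamed colons lay below all controls, and the difference was -0.72 (SE 0.14, 1.64-fold, adjusted p = 0.00146). The other probe set of Arntl, at 6.22 on average, differed by -0.20 with overlapping groups (adjusted p = 0.229). As the mean over its probe sets Arntl differed by -0.46 in inflamed colon (adjusted p = 0.00833). In severe colon that mean did not pass (-0.36, adjusted p = 0.0572). Unlike the 6 clock genes that fell, Arntl stood lower in moderate (-0.835) than in severe colon (-0.60), a difference of 0.24 between the grades that did not pass (interval -0.13 to 0.61). Without moderate replicate 3 the difference between the grades was 0.044. Clock, its usual partner, differed by -0.14 in its brightest probe set (adjusted p = 0.217), but its other 3 probe sets were lower, at -0.93, -0.65 and -0.34, and the mean over its probe sets passed at -0.52 (adjusted p = 0.000141).

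The D-box competitors moved apart. Nfil3, the repressor, read 5.23, 4.61, 5.14 and 5.31 in control, 6.32, 6.55 and 6.64 in moderate and 7.36, 6.66 and 6.83 in severe colons. The groups did not overlap, and Nfil3 rose by 1.65 (SE 0.19), 3.15-fold with an interval of 2.36- to 4.20-fold (adjusted p = 4.41e-05). Among 13 windows of other core clock genes the REV-ERB and ROR element occurred in 1, that of Nfil3. The E-box occurred in 2 (Bhlhe41 and Ciart), the E′-box in 1 (Rorb) and the CRE in 1 (Hlf). The Nfil3 window carries its element in reverse, 12 bases before the start. It is shown for that match, whose part in the rise was not tested:
Nfil3 (chr13:52981040-52981068, minus strand): agcgcggcgctcggaacTGACCTActaac
Hlf, the third D-box activator, read 6.57, 6.32, 6.14 and 6.19 in control, 5.59, 5.12 and 5.65 in moderate and 5.00, 5.11 and 4.61 in severe colons. No inflamed colon reached a control, and Hlf fell by 1.12 (SE 0.18, 2.18-fold, adjusted p = 0.000501). Nfil3 is also induced in several kinds of immune cell, whose markers rose in these colons; the part of those cells was not tested.

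Ciart, a repressor that acts on the Arntl and Clock pair, carries 3 E-boxes in its window, the most among the clock genes searched, and is shown for them:
Ciart (chr3:95882250-95882361, minus strand): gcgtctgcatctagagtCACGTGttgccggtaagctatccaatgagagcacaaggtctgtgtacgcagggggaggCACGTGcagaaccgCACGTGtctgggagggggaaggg
Its values were 6.23, 6.85, 6.74 and 7.05 in control, 6.27, 5.96 and 6.49 in moderate and 5.85, 5.92 and 5.97 in severe colons. Severe colons lay below all controls and 2 moderate colons did not. Ciart differed by -0.64 (SE 0.16, adjusted p = 0.00864). Bhlhe40, a repressor that also binds E-boxes, was higher by 0.38 (adjusted p = 0.0109), and Arntl2, a relative of Arntl, by 0.24 (adjusted p = 0.0151), with a dim second probe set of Arntl2 higher by 1.66 (adjusted p = 8.68e-06). Rora differed by -0.11, Rorb by 0.12 and Bhlhe41 by 0.16, none of which passed.

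Of 13 measured genes that modify clock proteins, such as kinases and ubiquitin ligases, 3 were lower (Cipc, Prkaa1 and Sirt1), 1 was higher (Usp7) and 9 did not pass. The shares over all genes were 21.2% lower and 18.5% higher. Cipc, whose protein binds Clock and inhibits it, read 10.71 to 10.83 in control and 8.71 to 9.77 in inflamed colons, a fall of 1.49 (SE 0.16, 2.81-fold, adjusted p = 2.65e-05). The calls of Prkaa1 (-0.49, adjusted p = 0.033) and Usp7 (0.24, adjusted p = 0.0306) were lost in 7 and 9 of 22 alternative settings. The other probe sets of Usp7 went both ways, from -0.22 (adjusted p = 0.0608) to 0.34 (adjusted p = 0.0265). As the mean over its probe sets Usp7 differed by 0.012 (adjusted p = 0.882). Sirt1, a deacetylase, differed by -0.39 (adjusted p = 0.00495).

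Of 9 genes known to follow the clock in many tissues, 3 were lower, 4 higher and 2 did not pass, beside 21.2% lower and 18.5% higher over all genes. Klf9, a transcription factor that glucocorticoids also induce, differed by -0.71 (SE 0.072, adjusted p = 1.9e-05), with 11.76 to 11.93 in control and 10.92 to 11.20 in inflamed colons. Tsc22d3, a glucocorticoid-induced leucine zipper gene, differed by -0.71 too (SE 0.097, adjusted p = 0.000144). Klf10 rose by 0.78 (adjusted p = 6.12e-05), Nampt, the rate-limiting enzyme of NAD salvage, by 0.74 (adjusted p = 0.000222, but 0.0612 as the mean over its probe sets) and Tspan4, a tetraspanin, by 0.73 (adjusted p = 0.00883). These lists did not move one way as a whole, with medians of -0.019 for the modifiers and -0.18 for the output genes.

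Colons of the same group also differed from each other. The values of the 10 clock genes were set against the mean of each colon's own group, and the counts are a description with no test. In control replicate 1, 2 of the 10 genes (Cry1 and Npas2) lay above the group mean, against 48% of all genes, and in control replicate 2, 8 of the 10 did, against 49.8%. Dbp stood at -0.57 and 0.43 in these 2 mice and Cry1 at 0.42 and -0.32. In moderate replicate 2, 2 of the 10 (again Cry1 and Npas2) lay above the mean, against 50.1% of all genes, with Dbp at -0.69 and Npas2 at 0.21; Arntl, which is not among the 10, stood at 0.44. Moderate replicate 3 had 7 of the 10 above the mean, against 47.1% of all genes, with Dbp at 0.70, Npas2 at -0.30 and Arntl at -0.39. In severe replicate 2, 8 of the 10 lay above the mean, against 50.1% of all genes, and Cry1 (-0.11) and Cry2 (-0.098) lay below. The counts in the other colons ran from 4 to 6 of 10, against 47.7% to 54.6% of all genes.

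**Figure D4:**
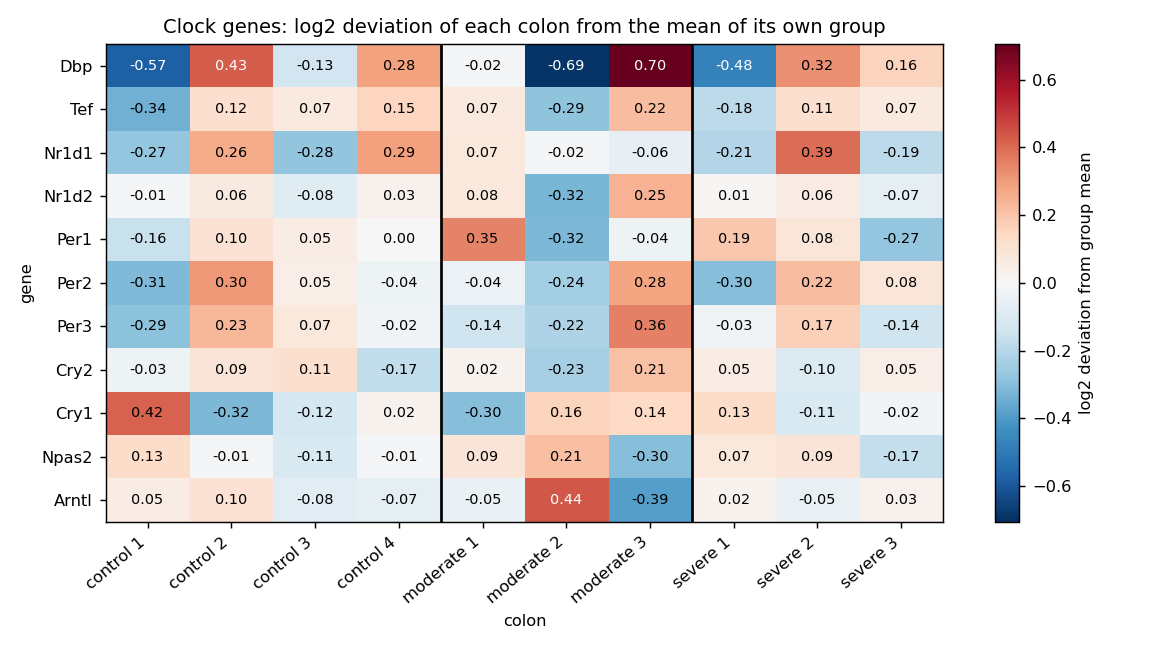
Deviation of each colon (columns) from the mean of its own group on the log2 scale for the 10 clock genes and Arntl (rows), with red above and blue below the mean and the value printed in each cell. Control replicate 1 and moderate replicate 2 are at or below their group means from Dbp to Per3, and Arntl is highest in moderate replicate 2 at 0.44 and lowest in moderate replicate 3 at -0.39.

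These deviations within groups were smaller than the differences between groups for the 6 genes that fell. The widest, that of Dbp, ran from -0.69 to 0.70 within the moderate group, against a difference of -2.35 between inflamed and control colon. For Per1, Per2, Npas2 and Cry1 the widest deviation within a group was larger than the difference between inflamed and control. For Cry1 it was 0.42 in control replicate 1 against a difference of 0.40. The call of the 6 genes already weighed their difference against the spread within groups, so this comparison largely follows from that call. In inflamed colons each deviation was taken from the mean of its own grade, while the difference pools both grades. The comparison is a description with no test, and the part of variation between colons in the fall was not tested.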

How the data were processed

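Distal colon RNA of 10 mice was measured on Affymetrix mouse arrays. The deposited log2 values were made by the authors with RMA in Affymetrix Expression Console, without a version, which subtracts background, equalizes the distributions of the arrays and summarizes the probes of a set. Quantile equalization removes any overall shift between arrays, and differences are relative to it. Array medians lay between 5.36 and 5.40 and lower quartiles between 3.82 and 3.92. Precision is limited by having 10 arrays. The labels name Trizol for RNA extraction and the methods a column kit.

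Probe sets were joined to genes through the platform annotation (omitting 932 that name more than 1 gene), and of each of the 18193 genes the probe set brightest on average was kept. limma 3.58.1 in R 4.3.3 (lmFit, eBayes, two-sided) tested inflamed against control with 2 groups, and the grades with 3 groups and a common variance, with Benjamini-Hochberg adjustment over all genes at 0.05; probe sets were tested likewise over all 34945. The tests were checked on simulated data. Alternatives were the mean over probe sets, the highest probe set on each array, a filter on dim genes, other scalings, variance models, array weights, designs, the methods' t-test, a replicate block and each array left out. Motif letters were searched in RefSeq windows, and figures were drawn with matplotlib in Python.

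The genes and lists were chosen with earlier results of these data known. Named were all 10 genes with their probe sets, every other core clock gene, and of the remaining clock lists the 3 largest rises and 3 largest falls past the threshold; Prkaa1, Sirt1 and Usp7 were named after their values were seen. Of 9 pairs of samples sharing a replicate number across groups, 2 had deviations that correlated over 0.1 (r from -0.078 to 0.29). Both joined severe with moderate colons, replicate 1 at 0.293 and replicate 2 at 0.254, while replicate 3 gave -0.030. The numbers were not taken as pairs, and the replicate block was run as an alternative.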

Additional observations from a re-analysis of the deposited data

How the results depend on the processing

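The 6 lower clock genes stayed called in inflamed and in severe against control under all 22 alternatives run. In moderate against control between 4 and 6 did: Tef was lost as the mean over probe sets (adjusted p = 0.0838), under the methods' t-test after adjustment (0.11), under the replicate block (0.0609) and without control replicate 2, 3 or 4 or moderate replicate 2, and Nr1d1 under that t-test (0.0732) and without control replicate 2 or 4 or moderate replicate 2 or 3. The count of higher clock genes, 1 for inflamed and severe against control, was 0 under the methods' t-test after adjustment and under the replicate block, 0 for severe without adjustment as well, and ranged from 0 to 1 with each array left out, in moderate against control too (Cry1 without control replicate 1, adjusted p = 0.0424). The count of higher probe sets behaved alike, at 0 under that t-test and the block and 0 to 1 with an array left out. With the replicate block 6 clock genes were still lower in inflamed colon. In severe against moderate, leaving out an array gave 0 to 1 lower clock genes (Nr1d2 without moderate replicate 2, adjusted p = 0.0453), 0 to 6 lower and 0 to 14 higher genes of all, and the unadjusted t-test 2, 338 and 305. Csnk1d, a kinase of Period proteins, turned from no difference to a rise of 0.37 in inflamed (adjusted p = 0.000678) and 0.39 in severe colon (adjusted p = 0.00267) as the mean over its probe sets, 2 of which were higher by themselves. Over all genes, lower calls in inflamed colon ranged from 3378 to 4326 and higher calls from 2840 to 4167. For the other changed calls the cause was not tested. No signal over background was at hand, so dim probe sets may understate a difference.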
